A study of Mus musculus with 6 samples.

Results

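The interleukin-1 (IL-1) and interleukin-36 (IL-36) family comprises 10 genes here, taken by symbol or alias: Il1a, Il1b, Il1rn, Il1f5 (Il36rn), Il1f6 (Il36a), Il1f8 (Il36b), Il1f9 (Il36g), Il1f10, Il18 and Il33. They were represented by 13 probe sets of the 45037 on the array that are not controls, and by 10 of the 18193 genes measured. The whole back skin of 6 female mice from a single litter was profiled on postnatal day 2.5, with 1 Affymetrix array for each animal. Of these mice, 3 were K5cre-caNrf2 (tg/tg), in which a constitutively active Nrf2 (caNrf2) is switched on by Cre recombinase under the keratin 5 promoter, hence in keratinocytes. The 3 control mice were K5cre-wt (tg/wt), so both groups carried K5cre, and the background of both was FVB/N and C57BL/6 mixed. Groups follow the sample titles, because the genotype label of caNrf2 mice is spelt tg/g and a treatment label names CaNrf2 in all 6 samples. The titles read transgene strong and wildtype strong, and the word strong, shared by all 6, is not explained there. The series asks which genes active Nrf2 controls in skin, and the comparison described here asks which IL-1 family genes differed between the genotypes.

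IL-1 family cytokines are made largely by epithelial and myeloid cells and signal through paired receptor chains and the adaptor Myd88 to NF-kB. In skin, keratinocytes are a main source of the IL-36 cytokines, whose activity is held in check by the receptor antagonist that Il1f5 encodes. Il1rn encodes the corresponding antagonist of IL-1 itself. Several members are made as precursors that proteases must cut before they are fully active, and Il1b and Il18 are cut by caspase-1 in inflammasomes.

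Of the 10 members, 8 lie on chromosome 2, where Il1f8, Il1f9, Il1f6, Il1f5, Il1f10 and Il1rn follow one another in the annotation without another protein-coding gene between them. Il1a and Il1b are neighbours elsewhere on that chromosome, Il18 lies on chromosome 9 and Il33 on chromosome 19. The promoters of the first pair of this row, Il1f9 and Il1f8, are shown because they belong to the members that passed the test. Each sequence is the 250 bases before the annotated start in RefSeq, build GRCm38.p6, plus strand, at chr2:24186226-24186475 for Il1f9 and chr2:24152922-24153171 for Il1f8. Capitals mark a match to the motif TGANTCA of AP-1, a transcription factor of stressed and growing keratinocytes.
Il1f9: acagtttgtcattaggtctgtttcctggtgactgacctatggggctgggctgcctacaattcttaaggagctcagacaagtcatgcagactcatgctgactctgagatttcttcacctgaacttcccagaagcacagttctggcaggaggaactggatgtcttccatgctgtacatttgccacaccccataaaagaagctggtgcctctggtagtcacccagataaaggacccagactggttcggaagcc
Il1f8: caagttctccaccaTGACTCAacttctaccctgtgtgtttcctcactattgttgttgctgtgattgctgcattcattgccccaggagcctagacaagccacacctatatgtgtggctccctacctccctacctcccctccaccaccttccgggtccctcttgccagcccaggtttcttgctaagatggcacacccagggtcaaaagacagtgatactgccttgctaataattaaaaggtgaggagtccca

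These windows were searched on both strands for the core of the antioxidant response element, TGACNNNGC, to which Nrf2 with a small Maf protein binds, for TGANTCA, for the NF-kB motif and for TATAAA. RefSeq promoters were at hand for 9 of the 10 members, all but Il1f6. The Nrf2 core occurred in none of the members' windows, and it occurs in 10.2% of all 32851 promoter windows of the same length. The AP-1 motif occurred once each in Il1f8 (bases 236 to 230 before the start), in the first of 3 Il1rn windows (141 to 135) and in Il1a (12 to 6), and in 6.75% of all windows. The NF-kB motif occurred in none of the members' windows and in 7.25% of all. TATAAA occurred in the windows of Il1a, Il1b, Il18 and Il33, and in 12.4% of all. These are matches of letters only, and other stretches of these loci were not searched.

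Skin with active Nrf2 carried 4.396 times as much Il1f9 RNA and 1.502 times as much Il1f8 RNA as control skin, and these 2 of the 10 members were higher by the test. No member passed as lower, and 8 did not pass in limma with Benjamini-Hochberg adjustment over all genes. Over all genes the test called 3.65%, with 2.26% higher and 1.39% lower. At an unadjusted p under 0.05 the members counted 5 higher and 2 lower, and of all genes 10.8% were higher and 9.54% lower by that measure. The median log2 fold change was 0.09 over the members and -0.0041 over all genes. In whole skin, more RNA per cell and more cells of a type cannot be told apart, and protein was not measured.

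**Figure D1:**
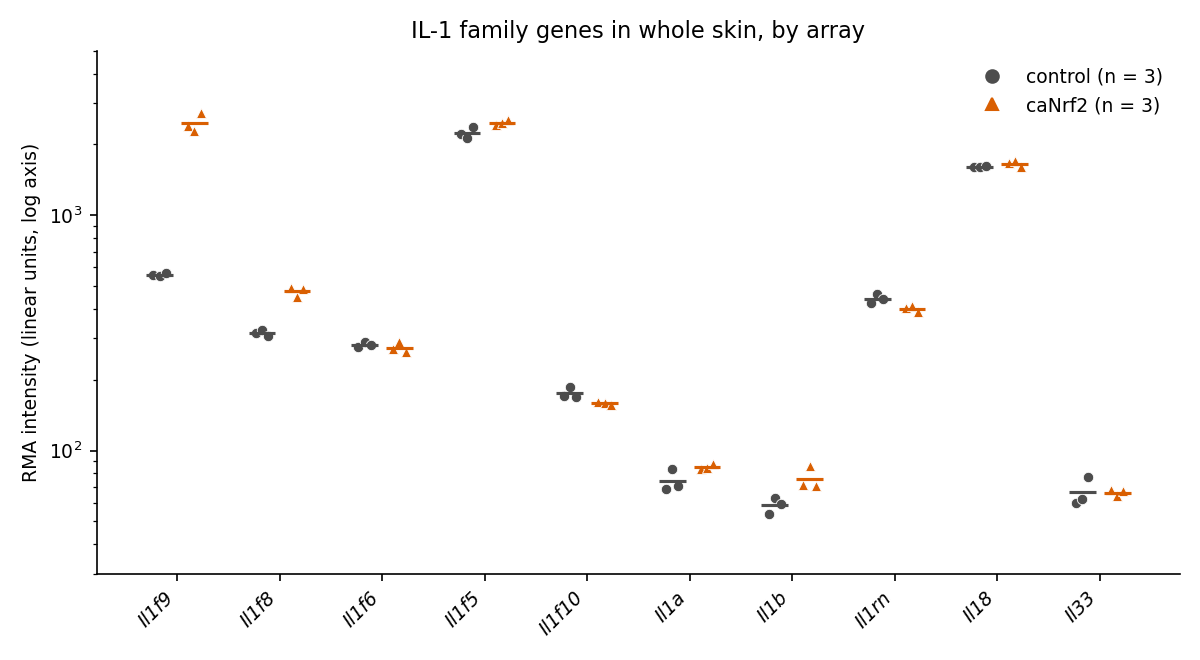
RMA intensity (log axis) of the 10 IL-1 family genes in each of 3 control arrays (circles) and 3 caNrf2 arrays (triangles), with bars at the group means. Il1f9 and Il1f8 stand apart by genotype, with group means of 559.7 against 2467 and 316 against 475, and levels of different genes should not be compared because each is read by its own probes.

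The IL-36 agonists, which bind the receptor chain encoded by Il1rl2, did not move together. Il1f9, the IL-36 gamma gene, read 559, 553 and 567 in the control arrays and 2405, 2275 and 2722 in the caNrf2 arrays (RMA intensity, linear scale). The controls lay within a few percent of each other, and the lowest caNrf2 array was far above the highest control. Group means were 559.7 ± 6.91 and 2467 ± 230.0 (SD, n = 3). On the log2 scale Il1f9 rose by 2.14 with a standard error of 0.07, as are all further errors of log2 fold changes (limma, adjusted p = 1.5e-07). This was rank 19 among the rises of all 18193 genes by size.

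Il1f8, the IL-36 beta gene, read 315, 325 and 308 in control and 489, 450.0 and 485 in caNrf2 skin. The groups did not overlap, and its log2 fold change was 0.59 ± 0.06 (limma, adjusted p = 0.000545), rank 132 among all rises. The rise of Il1f9 exceeded that of Il1f8 by 1.55 on the log2 scale, as the mean within-array difference of both genes went from 0.82 ± 0.06 to 2.37 ± 0.10 (SD, n = 3). No array of one group reached the other in this difference (p = 0.1 in an exact two-sided permutation test, which cannot go lower with 3 arrays in each group). This contrast takes the members that passed the test, so it is no independent evidence that their rises differ.

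Il1f6, the IL-36 alpha gene, lies next to Il1f9 and read 274, 289.8 and 282 in control against 270.0, 289 and 262 in caNrf2 skin. The groups overlapped almost fully, with a log2 fold change of -0.04 ± 0.06 and a 95% interval from -0.18 to 0.09. That interval holds neither the Il1f9 nor the Il1f8 estimate.

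The antagonists did not pass. Il1f5, which blocks the IL-36 receptor, had 2 probe sets that moved in opposite directions. The brighter probe set read 2224, 2127 and 2378 in control and 2418, 2467 and 2539.8 in caNrf2 skin, without overlap (log2 fold change 0.14 ± 0.06; limma, adjusted p = 0.24).

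The dimmer Il1f5 probe set read 417, 366 and 386 in control and 356, 330.2 and 307 in caNrf2 skin, also without overlap but in the other direction. In the fit over all probe sets it gave -0.23 ± 0.08 (limma, adjusted p = 0.182), and this fit called 1.68% of all probe sets. Within each array the brighter minus the dimmer probe set was 2.42, 2.54 and 2.62 on the log2 scale in control and 2.77, 2.90 and 3.05 in caNrf2 skin. The difference was thus larger by 0.38 with active Nrf2 (exact two-sided permutation p = 0.1, the smallest possible), a contrast chosen after its values were seen. The direction of Il1f5 therefore depends on the probe set that stands for it.

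Il1rn, the antagonist of IL-1 alpha and IL-1 beta, was measured by 3 probe sets, all with negative estimates. The brightest read 423, 463 and 439 in control and 403, 410.0 and 389 in caNrf2 skin, without overlap (-0.14 ± 0.06; limma, adjusted p = 0.234). The next read 384, 403 and 365 against 356, 358 and 381, with overlap and an estimate of -0.07 ± 0.07 in the fit over all probe sets. The dimmest read 278, 276 and 240.0 against 226, 223 and 221, without overlap (-0.24 ± 0.07; limma, adjusted p = 0.156).

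Il1f10, which encodes the cytokine also called IL-38 and is regarded as an antagonist, read 170.1, 187 and 169 in control and 161, 159 and 156 in caNrf2 skin. The caNrf2 arrays all lay below the controls, but the difference did not pass (-0.14 ± 0.06; limma, adjusted p = 0.244).

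The IL-1 agonists were dim. Il1a, which keratinocytes store and release when damaged, read 68.7, 83.3 and 70.5 in control and 83.1, 84.2 and 87.6 in caNrf2 skin. One control reached the caNrf2 range, and the log2 fold change of 0.20 ± 0.08 did not pass (limma, adjusted p = 0.2). Il1b, made mostly by myeloid cells, read 53.7, 62.8 and 59.1 in control and 71.4, 86.2 and 70.5 in caNrf2 skin.

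The Il1b groups did not overlap, and its log2 fold change was 0.37 ± 0.09 (limma, adjusted p = 0.0579), just outside the threshold. With other variance models, with array weights, without dim genes or with the replicate number in the fit it passed, at adjusted p from 0.0338 to 0.0472. Over all 13 alternatives adjusted p ran from 0.0338 to 0.193, and the estimate from 0.28 to 0.43. Its control mean of 58.5 lay below the highest group mean of Y-linked probe sets, 61.6, which measure background in female mice, so the size of its difference is uncertain. Of 20 such probe sets, 14 had both group means under 20.

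Il18, whose product is a substrate of caspase-1, was bright and near equal, at 1605, 1596 and 1619.7 in control and 1673, 1693 and 1606 in caNrf2 skin (0.04 ± 0.06, 95% interval from -0.08 to 0.17). Il33, a nuclear alarmin of barrier cells, read 60.1, 62.4 and 77.6 in control and 67.9, 63.9 and 67.1 in caNrf2 skin, with means of 66.7 ± 9.48 and 66.3 ± 2.08. These means lay just above the highest Y-linked group mean, 61.6, so a difference in Il33 could be hidden by background. The groups overlapped for both Il18 and Il33.

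**Figure D2:**
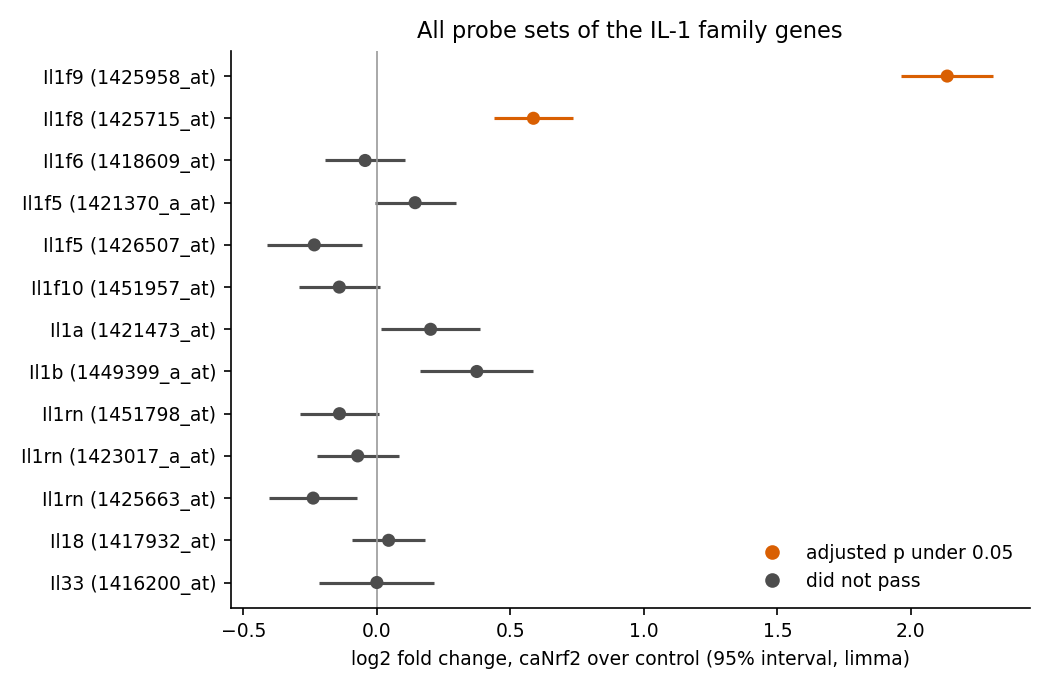
Log2 fold change of caNrf2 over control with its 95% interval for all 13 probe sets of the IL-1 family genes, from the limma fit over all probe sets. Il1f9 (2.14) and Il1f8 (0.59) passed at adjusted p under 0.05, and the pair of Il1f5 probe sets lies on opposite sides of 0.

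Without overlap between the groups were 6 of the 10 members, 4 of them higher and 2 lower with active Nrf2, against 25.7% of all genes. By size, Il1f9 differed by 4.396-fold and Il1f8 by 1.502-fold, Il1b by 1.30-fold, and the remaining estimates lay between -0.14 and 0.20 on the log2 scale. From Il1f8 downward the 95% intervals of neighbours in this order overlap, so only the first place of Il1f9 is clear of its neighbour. Of the 13 probe sets, 8 did not overlap between the groups, against 23% of all probe sets.

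By the shape of the profile over 6 arrays, the 6 genes closest to Il1f9 were Blvrb, Abcc3, Sprr2d, Akr1b8, Nyx and Gstm6. Likeness was the root mean square distance between log2 values, each gene centred on its own mean, and it ran from 0.088 for Blvrb to 0.178 for Gstm6. Blvrb, a biliverdin reductase, read 533, 577 and 515 in control and 2162, 2122 and 2331 in caNrf2 skin. Sprr2d, a cornified envelope precursor, read 108, 110.5 and 111 against 525, 559 and 642. In both genes, as in Il1f9, Abcc3, Akr1b8 and Nyx, the highest array was caNrf2 replicate 3. In Gstm6 it was the lowest caNrf2 array, at 159 against 164 and 165. The 6 genes were picked for likeness to Il1f9, so a shared order is no separate result. The log2 fold changes of the 6 genes ran from 1.89 for Nyx to 2.38 for Sprr2d. The control means of Nyx and Gstm6, 35.2 and 40.4, lay within the Y-linked range, so the sizes of their rises are uncertain, and likeness in 6 arrays of 2 genotypes mainly reflects a rise of like size.

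Among the receptor genes of the family measured here, the decoy receptor was lower in skin with active Nrf2 and no other passed the test. Of 10 receptors and binding proteins measured of 11 listed, 0 were higher, 1 was lower and 9 did not pass (limma; 1 higher and 2 lower at an unadjusted p under 0.05; median 0.02). The share called was 10%, against 3.65% of all genes. At that unadjusted p, 10.8% of all genes were higher and 9.54% lower. Il1r2, which binds IL-1 without passing on a signal, read 222, 209 and 192 in control and 149.9, 146 and 116 in caNrf2 skin. All caNrf2 arrays lay below all controls, and Il1r2 fell by 0.60 ± 0.10 on the log2 scale (limma, adjusted p = 0.0116). This call held in each of 13 alternatives, at adjusted p up to 0.0495.

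Il1rl2, the receptor chain that binds the IL-36 cytokines, read 494, 496 and 523 in control and 515, 515 and 504 in caNrf2 skin. The estimate was 0.02 ± 0.06, with a 95% interval from -0.11 to 0.15. Its dimmer probe set gave -0.18 ± 0.08 and did not pass. The signalling receptor Il1r1 read 499, 518 and 465 against 445, 485 and 469.9 (-0.08 ± 0.07). The brightest of 5 probe sets of the shared accessory chain Il1rap read 295, 279.6 and 293 against 258, 259 and 275 (-0.13 ± 0.06, limma adjusted p = 0.243). In the fit over all probe sets its dimmer ones gave 0.04 ± 0.07, 0.05 ± 0.08, 0.15 ± 0.08 and -0.20 ± 0.09, and none passed. Over 13 alternatives the Il1rap estimate ran from -0.16 to -0.02.

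Of the remaining receptors, Il18bp, which neutralises IL-18, gave 0.19 ± 0.08 (limma, adjusted p = 0.218), and the inhibitory receptor Sigirr -0.06 ± 0.07. Il18r1, Il1rapl1 and Il1rapl2 had group means under 20 in both genotypes, no brighter than many Y-linked probe sets. Il18rap, the accessory chain of the IL-18 receptor, had 2 probe sets that gave different answers. The brighter was at 67.1 ± 1.60 and 67.7 ± 1.99, while the dimmer, from 24.3 ± 2.81 to 34.1 ± 3.02, rose by 0.49 ± 0.10 in the fit over all probe sets (limma, adjusted p = 0.0437) at levels within the Y-linked range.

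**Figure D3:**
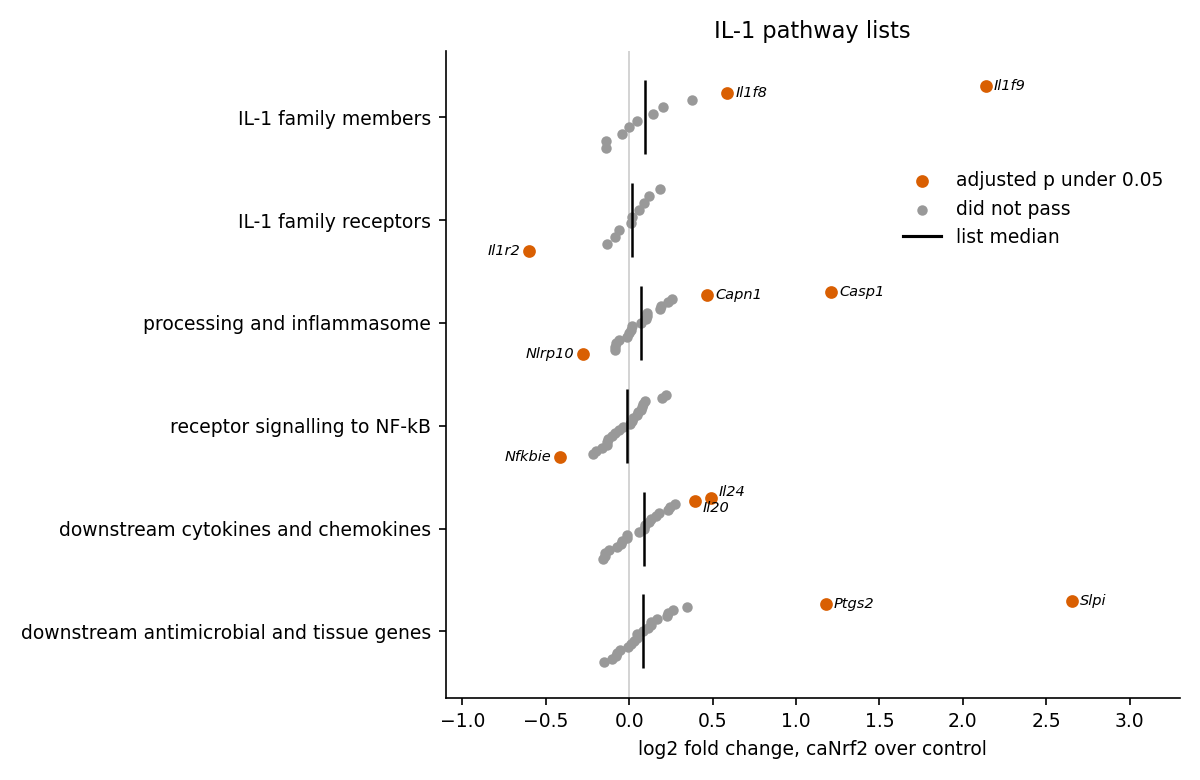
Log2 fold change of caNrf2 over control for each measured gene of the IL-1 family and of 5 lists of its receptors, processing, signalling and downstream genes. Orange points passed at adjusted p under 0.05 and are named, and black lines are list medians, which lie between -0.01 and 0.09.

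Among genes that process IL-1 family precursors, caspase-1 RNA more than doubled. Of 19 genes measured of 22 listed, 2 rose, 1 fell and 16 did not pass in limma, with a median of 0.07. The calls were 15.8% of this list, against 3.65% of all genes. At an unadjusted p under 0.05 the list had 6 higher and 1 lower, against 10.8% and 9.54% of all genes. Casp1, the protease that cuts the Il1b and Il18 precursors, read 105, 112 and 113 in control and 243, 222 and 302 in caNrf2 skin. The groups were far apart, with a log2 fold change of 1.21 ± 0.10 (limma, adjusted p = 0.000135).

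Capn1, a calpain protease of the type that cuts the Il1a precursor, read 828, 850.4 and 778 in control and 1106, 1135 and 1146 in caNrf2 skin. The groups did not overlap (0.46 ± 0.06; limma, adjusted p = 0.00229), and its second probe set gave 0.41 ± 0.08. Nlrp10, a member of the NLR family expressed in epidermis, read 399, 386 and 412 in control and 342, 325 and 321 in caNrf2 skin. It fell by 0.28 ± 0.06 on the log2 scale (limma, adjusted p = 0.0352), but this call was lost with any of the 6 arrays left out, at adjusted p up to 0.118. It also ended with the replicate number as a block (0.0608) and with further quantile normalization (0.0703). Calls for Casp1 and Capn1 held in each of 13 alternatives.

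Against 3.65% of all genes, the pathway from the receptors to NF-kB had 1 call among 22 genes measured of 25 listed (4.55%). It was Nfkbie, an inhibitor that retains NF-kB in the cytoplasm, at 50.6, 48.0 and 44.1 in control and 33.1, 39.2 and 34.7 in caNrf2 skin. The groups did not overlap, and it fell by 0.42 ± 0.08 (limma, adjusted p = 0.0228). Leaving out any array except caNrf2 replicate 2 or control replicate 3 ended this call, with adjusted p up to 0.0902, as did averaging its probe sets (0.0636), and both group means lay within the Y-linked range. In the fit over all probe sets the dimmer Nfkbie probe set gave -0.23 ± 0.12 with overlap and did not pass (limma, adjusted p = 0.345).

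No gene of this list passed as higher in limma, with 2 higher and 4 lower at an unadjusted p under 0.05, and the median was -0.01. By that unadjusted measure 10.8% of all genes were higher and 9.54% lower. Nfkbiz, the coactivator of NF-kB that IL-36 is known to induce, read 338, 346 and 349 in control and 415, 383 and 408 in caNrf2 skin. It did not overlap between the groups and stayed outside the threshold (0.22 ± 0.06, limma adjusted p = 0.0759), while 4 of 13 alternatives passed it. This was the brightest of 3 Nfkbiz probe sets. In the fit over all probe sets the others gave 0.21 ± 0.08 without overlap and 0.04 ± 0.07 with overlap, and neither passed. Irak2, a kinase-like adaptor of Myd88 complexes, gave 0.20 ± 0.06 (limma, adjusted p = 0.123).

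Cytokines and chemokines known to follow IL-1 or IL-36 were mostly near background. Of 21 measured of 24 listed, 11 had both group means under 32, 2 rose, 0 fell and 19 did not pass (limma; 5 higher and 0 lower at an unadjusted p under 0.05; median 0.09). The share called was 9.52%, against 3.65% of all genes. At that unadjusted p, 10.8% of all genes were higher and 9.54% lower. The risers were the IL-10 family cytokines Il20 and Il24, which act on keratinocytes. Il20 read 43.8, 41.0 and 46.1 in control and 63.1, 57.6 and 51.7 in caNrf2 skin (0.39 ± 0.08; limma, adjusted p = 0.0326).

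Il24 read 17.04, 19.3 and 17.6 in control and 29.5, 22.7 and 23.8 in caNrf2 skin (0.49 ± 0.10; limma, adjusted p = 0.0281). Neither gene overlapped between the groups, but all group means lay within the Y-linked range. Leaving out any array except caNrf2 replicate 3 ended the Il20 call, with adjusted p up to 0.0977. The Il24 call ended when caNrf2 replicate 3, control replicate 1 or control replicate 3 was left out, with adjusted p up to 0.1. With the replicate number as a block neither passed, with adjusted p = 0.061 for Il20 and 0.0626 for Il24.

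Ccl20, a chemokine of barrier epithelia, gave 0.27 ± 0.08 (limma, adjusted p = 0.108) at a control mean of 41.8, also within that range. Cxcl1, a neutrophil chemoattractant chosen after its values were seen, read 135, 139 and 124 in control and 148, 141 and 137 in caNrf2 skin, with overlap (0.10 ± 0.07).

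Among antimicrobial and tissue genes downstream of the family, 2 of 21 measured of 25 listed rose, 0 fell and 19 did not pass in limma (median 0.08). The share called was 9.52%, against 3.65% of all genes. At an unadjusted p under 0.05, 6 were higher and 0 lower, against 10.8% and 9.54% of all genes. Slpi, a secreted protease inhibitor, read 143, 94.5 and 131 in control and 633, 811 and 856 in caNrf2 skin (2.65 ± 0.16; limma, adjusted p = 9.52e-06). Ptgs2, the inducible enzyme of prostaglandin synthesis, read 42.2, 31.6 and 39.4 against 85.9, 80.1 and 88.3 (1.18 ± 0.10; limma, adjusted p = 0.000149). Groups did not overlap for either gene, and the dimmer Ptgs2 probe set gave 0.57 ± 0.15, which did not pass. The control mean of Ptgs2, 37.7, lay within the range of group means of the Y-linked genes, which leaves the fold of this gene uncertain.

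Ereg, a ligand of the EGF receptor, read 238, 239 and 249.97 in control and 287, 289.8 and 351 in caNrf2 skin, without overlap but outside the threshold (0.35 ± 0.08; limma, adjusted p = 0.053). It passed in 7 of 13 alternatives. The alarmins S100a8 and S100a9, chosen after their values were seen, gave 0.05 ± 0.10 and 0.11 ± 0.14 with overlapping groups.

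Over the 5 lists together, 6 of 93 genes rose and 3 fell, 9.68% against 3.65% of all genes. The number called was 5 without control replicate 1 and between 6 and 7 without any other array. The lists were chosen with earlier results of these data known, so this share is no independent evidence.

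**Figure D4:**
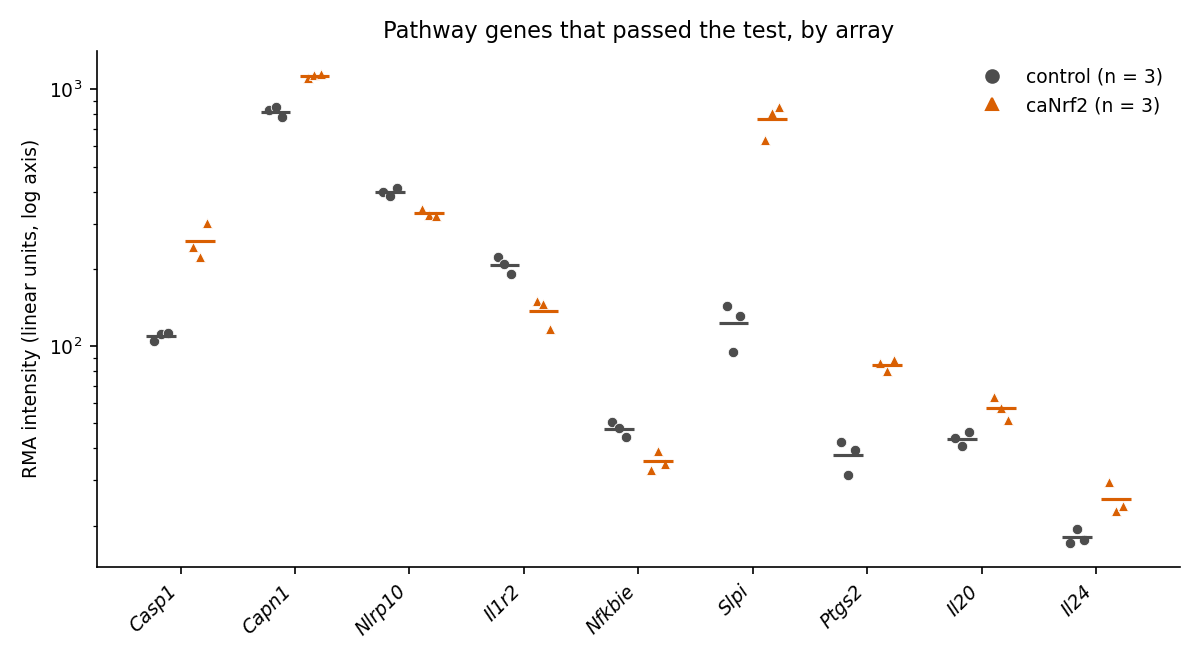
RMA intensity (log axis) of the 9 genes of the pathway lists that passed the test, in 3 control arrays (circles) and 3 caNrf2 arrays (triangles) with bars at the group means. The groups do not overlap in any of the 9, against 25.7% of all genes. The 9 were taken because they passed the test on these arrays, so this is no separate evidence. Slpi and Casp1 rise from control means of 123 and 110 to 766 and 256. Levels up to 61.6, such as the Ptgs2 control mean of 37.7, lie within the Y-linked range.

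Marker genes of the cell types that make or answer these cytokines were read on the same arrays. No array stood apart, with Pearson correlations of log2 intensity from 0.9973 to 0.998 within the groups and from 0.9949 to 0.9962 between them. Defining markers of keratinocytes (Krt5, Krt14, Krt1, Krt10) and fibroblasts were bright, as whole skin should show. The summed level of 7 keratinocyte markers was 92261 to 93663 in control and 94759 to 97373 in caNrf2 skin, a ratio of mean sums of 1.03, with 0 of 7 called and none at an unadjusted p under 0.05 in limma. Fibroblast markers summed to 71072 to 73629 and 68967 to 70496, with 0 of 6 called and none at that unadjusted p. The keratinocyte sums thus lay higher and the fibroblast sums lower in all caNrf2 arrays than in all controls, and their part in the results was not tested. Such sums mostly follow their brightest probe sets. Among these, Krt10 and Col3a1, at control means of 19703 and 20647, lay near the highest values on the arrays, 20444 to 21290. A change in these genes could be understated.

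Neutrophil markers summed to 585 to 668 in control and 615 to 712 in caNrf2 skin, with 0 of 9 called in limma and 3 higher at an unadjusted p under 0.05, against 10.8% of all genes. The 3 higher were Ltf (0.31 ± 0.09), Ngp (0.24 ± 0.06) and Csf3r (0.23 ± 0.09). Their limma adjusted p was 0.0964, 0.0501 and 0.209, in that order. Ltf and Ngp did not overlap between the groups, and all group means of these genes lay within the Y-linked range. The granule genes Mpo and Elane lay within that range in both groups as well. Camp, another granule gene, lay above it at 197 in control and 186 in caNrf2 skin (-0.08 ± 0.11). Macrophage and monocyte markers summed to 4597 to 4875 and 4422 to 5097, with 0 of 10 called and 0 at an unadjusted p under 0.05 in limma.

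Endothelial markers summed to 1899.6 to 1991 in control and 2036 to 2092 in caNrf2 skin, without overlap, with 0 of 6 called in limma and 0 at an unadjusted p under 0.05. Mast cell markers summed to 4983 to 5191 and 5029 to 5681, with 0 of 8 called and 0 at that unadjusted p. Pan-leukocyte markers summed to 1462 to 1679 and 1516 to 1732, and T and NK cell markers to 1447 to 1576 and 1372 to 1569.5, with 0 of 6 and 0 of 8 called. Each of these lists held 1 gene that was lower at an unadjusted p under 0.05, Ptprc (-0.24 ± 0.07; limma, adjusted p = 0.109) and Cd3g (-0.42 ± 0.11; limma, adjusted p = 0.0656). Most of the T and NK cell sum came from 1 gene, Thy1, with means of 1027 in control and 989 in caNrf2 skin. That sum therefore says little about the other T and NK cell markers. The part of these cells in the results was not tested.

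Of 8 Langerhans and dendritic cell markers, which stand for cells that can make Il1b, 1 rose, and their sums overlapped at 1541 to 1669.5 and 1583 to 1932. The ratio of mean sums was 1.08, and all estimates were positive, from 0.04 to 0.36 with a median of 0.13. At an unadjusted p under 0.05 in limma 2 were higher, against 10.8% of all genes. Besides the riser this was H2-Eb1, without overlap between the groups (0.21 ± 0.06, limma adjusted p = 0.0941). The riser was Cd207, the langerin gene of Langerhans cells, from 54.9 ± 1.44 to 70.8 ± 7.36 (0.36 ± 0.08; limma, adjusted p = 0.036), a call lost with any of the 6 arrays left out, at adjusted p up to 0.109, and at a control mean within the Y-linked range. Cd207 was highest in caNrf2 replicate 2 at 79.3, the array in which Il1b was highest as well. The controls did not share this order, as Cd207 was highest in control replicate 1 at 56.0, where Il1b was lowest at 53.7. The macrophage markers Adgre1 and C1qa were also highest in caNrf2 replicate 2, but Mrc1 was not. The part of Langerhans cells in the Il1b difference was not tested. A sign of RNA quality, the 3' to 5' log2 ratio of the Actb control probe sets, was 0.48 to 0.50 in control and 0.52 to 0.54 in caNrf2 skin, without overlap. The same ratio of Gapdh overlapped, at -0.22 to -0.20 and -0.21 to -0.16. The part of RNA quality in these results was not tested.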

How the data were processed

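The authors deposited 1 linear intensity for each probe set and array, and the submitters' processing notes name RMA. That method corrects background, equalises the distributions of the arrays and summarises probes, so a shift of most transcripts could not be seen. Which version was run is not given in the sources used here. Array medians lay between 80.3 and 81.6. The number of arrays limits the precision.

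Probe sets were named from the platform annotation, updated by Entrez identifier with RefSeq names of GRCm38.p6 (34741 of 34945 single-symbol probe sets matched). The probe set with the highest mean log2 value stood for a gene, and every probe set of a member was also fitted over all 45037 probe sets. Log2 intensities were fitted with limma 3.58.1 in R 4.3.3 (lmFit, eBayes, group as the only term, 4 residual degrees of freedom plus 5.52 from moderation). P-values were two-sided, adjusted by Benjamini-Hochberg over all genes, with a threshold of 0.05. On simulated data with 200 changed genes the fit recovered 100% of those changed by 1 on the log2 scale. The simulated noise was normal and independent between genes. Recovery of smaller changes is not reported here, so a smaller difference that did not pass is not shown to be absent. Each array is 1 animal.

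Gene lists for receptors, processing, signalling and downstream genes took exact symbols; list entries without a measured gene are not analysed here. Named were all members, all receptors, every called gene and the 3 smallest p of each list, the 6 profiles nearest to the member with the largest change (leaving out members and uncharacterised symbols), and 3 genes on each side of the members on chromosome 2. Members and lists were chosen with earlier results of these data known. Motifs were searched in 250 bases of RefSeq promoters. Alternatives were the mean of probe sets, log2(value + 16), further quantile normalization, an intensity trend with robust variances, array weights, leaving out genes under a mean of 32, the replicate number as a block, and leaving out each array.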

Additional observations from a re-analysis of the deposited data

How the results depend on the processing

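Il1f9 and Il1f8 passed in each of 13 alternatives, with log2 fold changes from 2.06 to 2.19 and from 0.56 to 0.63. The members called numbered 2 or 3, the third being Il1b. All genes called numbered 664, against 1022 with an intensity trend and robust variances and 298 to 507 with 1 array left out, where fewer samples enter. Calls in the 5 lists were 9, and 5 to 7 with 1 array left out. The labels give both genotypes the numbers 1 to 3, but deviations of same-numbered arrays correlated at 0.033, 0.135 and 0.093, so the numbers were not taken as pairs; with the replicate block 589 genes were called, 353 higher and 236 lower, among them 3 members and 7 genes of the lists. Each array correlated best with the array of its own number, except caNrf2 replicate 1, which gave 0.070 with control replicate 3. Arrays of unlike number correlated at -0.150 to 0.070. Whether the numbers mark pairs was not tested. Signs turned in 11 results, none of which passed. Il1f5 went from 0.14 to -0.045 and Il1rl2 from 0.02 to -0.079 as the mean of their probe sets. Il1f6 gave 0.00055, Chchd5 0.023 and Ckap2l 0.0067 with further quantile normalization. Il33 gave -0.0013 with log2(value + 16) and -0.0032 with quantile normalization, and S100a8 -0.024 with array weights. With single arrays left out, estimates ran from -0.070 to 0.114 for Il33, -0.0054 to 0.036 for Il18rap, -0.061 to 0.126 for S100a8, -0.059 to 0.204 for S100a9, -0.126 to 0.0096 for Psd4, -0.102 to 0.038 for Chchd5, -0.066 to 0.0087 for Ckap2l and -0.050 to 0.022 for Pdyn. Where a sign turned or a call changed, the cause was not tested. Control means within the Y-linked range limit the sizes given for Il1b, Il20, Il24, Nfkbie, Ptgs2, Ccl20, Cd207, Nyx and Gstm6, among others.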

Other observations

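The genes beside the family on chromosome 2 did not share the rise of Il1f9. Left of Il1f8, Hnmt gave a log2 fold change of -0.09 ± 0.07 and Spopl -0.22 ± 0.09, and right of Il1rn, Psd4 gave -0.07 ± 0.08, Pax8 0.11 ± 0.06 and Cacna1b 0.28 ± 0.07 (SE; none passed in limma). Pax8 had group means under 20, and the control means of Hnmt and Cacna1b also lay within the Y-linked range. Beside Il1a and Il1b, the phosphate transporter Slc20a1 rose by 0.31 ± 0.06 (limma, adjusted p = 0.0173), from 559 ± 8.65 to 695 ± 24.5 (SD, n = 3). Leaving out any array except caNrf2 replicate 2 or control replicate 3 ended that call, with adjusted p up to 0.0753, and as the mean of its 3 probe sets the estimate was 0.05. Chchd5, Ckap2l, Sirpa and Pdyn, the other measured neighbours of that pair, gave -0.02, -0.03, 0.12 and -0.01 and did not pass.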
